A study of Mus musculus with 33 samples.

Results

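Among the 10 kb windows in which Uhrf1 was enriched over input in WT mouse embryonic stem cells (mESC), 4369 of 13644 (32.0%, 95% Wilson interval 31.2 to 32.8%) lay in chromatin listed for both repressive histone marks, H3K9me3 and H3K27me3, and in no domain of the active mark H3K4me3. These doubly marked Uhrf1 windows were selected on the WT mESC lists alone: each shares at least 1 bp with a WT H3K9me3 domain and with a WT H3K27me3 domain, so their WT mESC marks are a description and no finding. Of the other Uhrf1 windows, 1809 carried H3K9me3 alone, 790 carried H3K27me3 alone, 6124 had none of the 3 marks and 552 touched H3K4me3. The same rule applied to all 255875 windows of the genome with at least 50% known bases found 61290 (24.0%). Over the whole grid, with no limit on known bases, 56933 such windows lay outside the Uhrf1 list, and these serve below as doubly marked windows without Uhrf1.

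The series profiled chromatin by ChIP-seq, which sequences DNA bound by an antibody's target, in WT E14 mESC and in Uhrf1 KO mESC, both undifferentiated, and in WT and Uhrf1 KO embryoid bodies (EBs) after week 1, week 2 and week 3 of differentiation. H3K4me3 and H3K27me3 were profiled at all 4 stages in both genotypes, H3K9me3 and 3 factors of pluripotency, Nanog, Sox2 and Oct4, in both genotypes of mESC, and Uhrf1 in WT mESC. The Uhrf1 KO cells are a line that the study obtained together with E14 from another laboratory, mESC were grown on gelatin or on plates coated with mouse embryonic fibroblasts, and EBs are aggregates of many cell types. Each genotype, stage and antibody target was represented by 1 library, so no difference has a replicate check and no p-value is given. Intervals are 95% and cover counting error only, since neighbouring windows share domains. In such bulk material, a mark in fewer cells and a weaker mark per cell cannot be told apart, nor can 2 marks on the same chromosome copy be told from marks in different cells.

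Uhrf1 is a nuclear protein that binds hemimethylated CpG sites and methylated H3K9 and brings the maintenance DNA methyltransferase Dnmt1 to newly replicated DNA. H3K9me3 is the mark of constitutive heterochromatin and of silenced repeats, bound by HP1 proteins. H3K27me3 is laid down by Polycomb repressive complex 2 and in mESC is best known at developmental promoters, where it often lies with H3K4me3.

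The markers of the cell type fitted the label in part. Of 8 mESC genes (Pou5f1, Sox2, Nanog, Zfp42, Esrrb, Klf4, Dppa5a and Tdgf1), 7 had H3K4me3 at the start in WT and 6 in KO mESC, with Esrrb absent from both lists and Sox2 from the KO list. Of 5 fibroblast genes, 4 had H3K4me3 at the start in WT, all 4 beneath H3K27me3, and 3 in KO without H3K27me3 (Col1a2, Thy1 and Twist1). The mESC genes with H3K4me3 and no H3K27me3 were 4 in WT and 6 in KO. Pou5f1, Sox2 and Klf4 had both marks in WT. The KO H3K27me3 list touched only 3.55% of all windows, so its absence at a start in KO sets neither group of genes apart. The start of Uhrf1 itself lay in an H3K4me3 domain in both genotypes, which says nothing about the deleted part. The lists of 3 chromosomes stood apart. WT H3K9me3 domains touched 87.7% of all windows on chromosome 8 and 81.9% on chromosome 11, against 21.6 to 53.0% on the other 17 autosomes and 3.79% on X. In KO mESC, H3K9me3 domains touched 33.8% of windows on chromosome 8, 98.9% on chromosome 11 and 0.450% on X. The number of copies of each chromosome was not analysed here. Several results are therefore also given without chromosomes 8, 11 and X.

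The sequence of these windows ranged from highly repeated to unique. As examples, 1 window wholly under both WT marks and free of exons is given for each of 3 combinations of marks found in KO mESC, with the CpG count closest to the median of its group. The most frequent combination, H3K9me3 only, is not among them, so the 3 do not represent the set. The middle 200 bases of each are printed 5′ to 3′ on the plus strand of mm9, with CpG dinucleotides, the sites of DNA methylation, in capitals.
H3K9me3 and H3K27me3 in KO mESC, chr11:63304901-63305100: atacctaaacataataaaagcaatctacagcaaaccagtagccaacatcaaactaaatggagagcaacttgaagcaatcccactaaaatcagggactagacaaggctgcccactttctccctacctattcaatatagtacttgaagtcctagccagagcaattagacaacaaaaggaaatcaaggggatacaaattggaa
H3K27me3 only in KO mESC, chr17:26944901-26945100: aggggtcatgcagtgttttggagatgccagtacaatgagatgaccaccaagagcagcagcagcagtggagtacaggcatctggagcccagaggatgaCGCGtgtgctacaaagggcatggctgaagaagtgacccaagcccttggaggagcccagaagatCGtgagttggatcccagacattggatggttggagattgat
Neither mark in KO mESC, chr2:78464901-78465100: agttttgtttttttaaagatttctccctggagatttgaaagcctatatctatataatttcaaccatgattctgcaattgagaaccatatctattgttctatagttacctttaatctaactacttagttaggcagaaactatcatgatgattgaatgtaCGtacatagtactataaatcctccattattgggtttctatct
None of the 3 windows lies in a coding gene. Cut into 170 overlapping stretches of 31 bases, the first sequence held only stretches that occur at least 2 times in the reference genome on either strand, with a median of 1022 copies. Of the 170 stretches of the second, 149 occurred at least 2 times, with a median of 22 copies. Each stretch of the last occurred once. The complete windows held 67, 74 and 72 CpG, in the order printed, although the 200 bases shown hold none in the first, 3 in the second and 1 in the last.

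Across all doubly marked Uhrf1 windows, 1 stretch of 31 bases was sampled every 1000 bp, which gave 43670 stretches. Of these, 51.3% occurred at least 2 times in the genome and 33.0% occurred at least 100 times. Doubly marked windows outside the Uhrf1 list reached 17.7% and 8.89% over every 10th window, and every 25th of all windows reached 16.7% and 7.59%. Windows in which 50% or more of the sampled stretches were repeated made up 63.0% of the doubly marked Uhrf1 windows and 11.1% of those outside the list, a difference of 51.9 percentage points (50.3 to 53.6, Newcombe interval). Uhrf1 windows with H3K9me3 alone were more repetitive than the doubly marked ones (71.03%, a difference of -8.04 points, -10.6 to -5.48), and those with no mark were more repetitive still (90.4%, a difference of -27.4 points, -29.1 to -25.8). For H3K27me3 alone the share was 60.9%, and the interval of the difference included 0 (2.103 points, -1.54 to 5.83). Only 219 doubly marked Uhrf1 windows (5.01%) held no repeated stretch. The study's methods report a single alignment for each read, so a read from a repeated stretch was placed at 1 of its copies, and how far this placement set the lists was not tested.

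**Figure D1:**
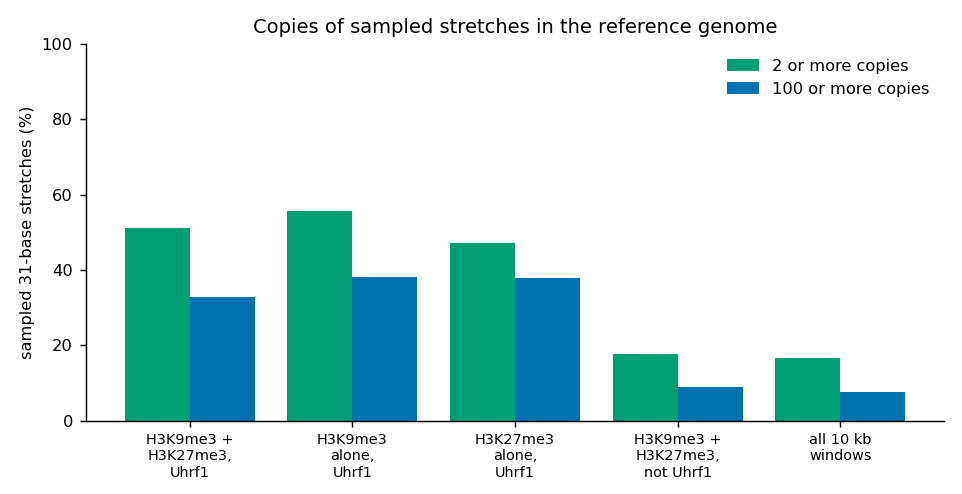
Share of sampled 31-base stretches (%, vertical axis) with at least 2 copies (green) or at least 100 copies (blue) in the reference genome, for 5 sets of 10 kb windows. The doubly marked Uhrf1 windows reach 51.3% and 33.0%, the doubly marked windows outside the Uhrf1 list 17.7% and 8.89%.

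The base composition differed less. The median GC content was 39.8% in doubly marked Uhrf1 windows, 39.2% in doubly marked windows outside the list and 41.2% over all windows. They held a median of 6.60 CpG per kb, with quartiles of 4.90 and 9.30, against 5.40 outside the list, 7.80 with H3K9me3 alone and 8.50 with H3K27me3 alone. The distributions overlapped widely.

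The windows lay scattered within long domains rather than at their edges. Both WT marks covered 3734 of the 4369 windows from end to end (85.5%). At the edge of the rule, 5 windows shared only 200 bp with an H3K9me3 domain and 9 only 200 bp with an H3K27me3 domain. Just outside it, 3 windows with H3K9me3 alone abutted an H3K27me3 domain with a gap of 0 bp, and 4 with H3K27me3 alone abutted an H3K9me3 domain. The windows formed 3877 runs of touching windows, of which 3456 were single, and 23.2% touched another Uhrf1 window of any kind, against 70.9% of the Uhrf1 windows with no mark. They fell in 2246 WT H3K9me3 domains with a median length of 124 kb, against 37.8 kb over the list, and in 2255 WT H3K27me3 domains, whose median length was 144 kb where the list had 61.2 kb. Longer domains hold more windows of any kind, so that these lengths follow in part from the choice.

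The deposited mean read count per bin was moderate in these domains. Over the windows, the WT H3K9me3 domain had a median of 14.9 reads per 1800 bp bin, with quartiles of 13.97 and 16.82, while the median domain of the list had 15.0. For WT H3K27me3 the median was 4.395 reads per 1800 bp bin, against 4.935 over the list. The windows were thus not the most heavily marked domains of either list.

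In Uhrf1 KO mESC, H3K9me3 remained listed at most of these windows and H3K27me3 at few. A KO H3K9me3 domain overlapped 3381 of 4369 windows (77.4%, 76.1 to 78.6%), against a background of 43.6% of all windows. The WT H3K9me3 list touched 42.9% of all windows, so the KO list did not touch fewer of them. Kept here means listed: the KO domains over the 3381 windows had a median of 10.8 reads per 1800 bp bin, with quartiles of 10.37 and 11.6. The WT domains over all 4369 windows had a median of 14.9 and a minimum of 12.48. The median KO domain of the whole list had 10.87. No common minimum count was asked for H3K9me3, and the part of depth in these counts was not tested. A KO H3K27me3 domain overlapped 160 (3.66%, 3.15 to 4.26%), against a background of 3.55%. The H3K27me3 share was close to that of any window, so that the low level belongs to the KO list as a whole, which held 722 domains against 8161 in WT. Taken jointly, 3256 windows (74.5%) had H3K9me3 only, 953 (21.8%) had neither mark, 125 (2.86%) had both and 35 (0.801%) had H3K27me3 only. H3K4me3, absent by the rule in WT, was listed at 33 windows in KO mESC (0.755%, 0.538 to 1.06%), against a background of 11.8%. Without chromosomes 8, 11 and X, the same shares were 78.4% for H3K9me3 and 3.73% for H3K27me3 over 3831 windows.

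**Figure D2:**
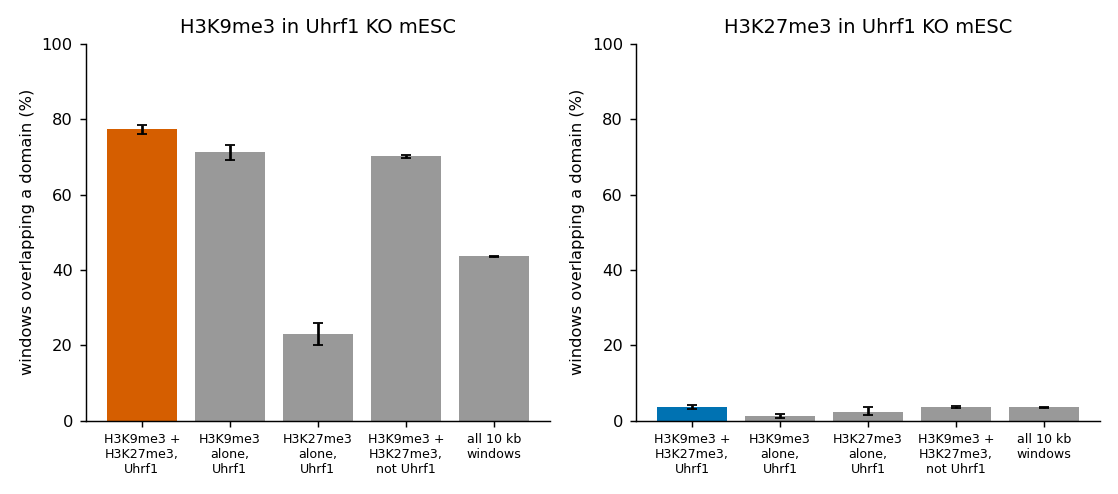
Share of windows overlapping a Uhrf1 KO mESC domain (%, vertical axis) for H3K9me3 (left) and H3K27me3 (right), in 5 sets of windows, with 95% Wilson intervals. H3K9me3 stands at 77.4% in the doubly marked Uhrf1 windows and 22.9% in those with H3K27me3 alone, and H3K27me3 is at or below 3.66% in all 5 sets.

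The kept H3K9me3 was compared with that of other windows marked in WT. Uhrf1 windows with H3K9me3 alone kept it at 71.2%, which was 6.19 points lower (3.79 to 8.64). Doubly marked windows outside the Uhrf1 list kept it at 70.2%, which was 7.15 points lower (5.83 to 8.43), and the sign was the same on 19 of 19 autosomes. Neither difference was independent of how the windows lie. Within 5 equal groups of WT H3K9me3 domain length, the first difference became -0.533 points, with signs that varied among the groups from -8.55 to 5.11 points. The second stayed positive in all 5 length groups, at 3.46 to 13.1 points, and was 5.81 points when weighted by members. It was 2.98 points where only domains at or above the median score were used and 10.8 points where each run of touching windows weighed the same.

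The repeat content changed the second comparison. Where no sampled stretch was repeated, 65.3% of 219 doubly marked Uhrf1 windows and 61.4% of 1815 outside the list kept H3K9me3, and the interval of the difference included 0 (3.92 points, -2.97 to 10.3). Where some but under 50% were repeated, the shares were 75.04% and 71.22% (3.81 points, 1.02 to 6.52). Where 50% or more were repeated, the order turned, with 79.5% of 2752 Uhrf1 windows and 86.0% of 629 others (-6.47 points, -9.40 to -3.19). Weighted over the 3 groups, the difference was -2.66 points, against 7.15 points without them. H3K9me3 was thus kept more often in more repetitive windows of both sets. The Uhrf1 windows had the higher share in the 2 less repetitive groups and the lower share in the most repetitive one, which holds most of them and so sets the weighted value.

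Domain length went with the outcome inside the set as well. Windows that kept H3K9me3 lay in WT domains with a median length of 277 kb over windows, and those that did not in domains of 88.2 kb, while the mean counts were alike at 15.0 and 14.5 reads per bin. By equal groups of WT domain length, the kept share was 48.4%, 72.2%, 87.0%, 92.5% and 86.5% from the shortest to the longest. Of the 3381 windows with KO H3K9me3, 3225 (95.4%) lay wholly inside a KO domain. The KO domains over them had a median length of 353 kb over 1011 domains. The 2246 WT domains over all the doubly marked Uhrf1 windows had a median of 124 kb. Domains were longer in the whole KO H3K9me3 list too, with a median of 140 kb against 37.8 kb in WT, so the greater length was not particular to these windows.

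The surroundings showed the same. Windows 100 kb upstream of a doubly marked Uhrf1 window were in a WT H3K9me3 domain at 70.6% and in a KO H3K9me3 domain at 67.3%. For H3K27me3 the values at that distance were 62.6% in WT and 2.45% in KO mESC. The step between genotypes was therefore smaller 100 kb away than at the windows themselves for H3K9me3, where WT is 100% by the rule, and was large throughout for H3K27me3.

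**Figure D3:**
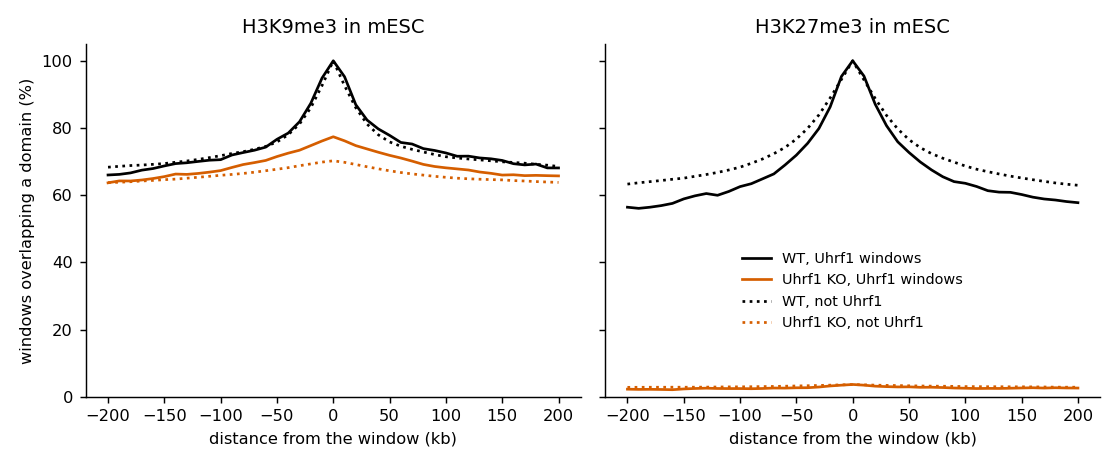
Share of windows overlapping a domain in mESC (%, vertical axis) by distance in kb from doubly marked windows in the Uhrf1 list (solid) and outside it (dotted), for WT (black) and Uhrf1 KO (orange). WT is 100% at distance 0 by the rule. At -100 kb, H3K9me3 around Uhrf1 windows stands at 70.6% in WT and 67.3% in KO, and H3K27me3 at 62.6% and 2.45%.

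H3K27me3 in KO mESC did not set the doubly marked Uhrf1 windows apart. Uhrf1 windows with H3K27me3 alone kept it at 2.28%, and the interval of the difference reached just below 0 (1.38 points, -0.0102 to 2.41). Doubly marked windows outside the list kept it at 3.63% (0.0333 points, -0.507 to 0.651). The 160 windows that kept the mark lay in 84 KO domains, with up to 9 windows in 1 domain. These KO domains held few reads: the median was 0.546 reads per 1500 bp bin, and 110 of the 160 windows lay in domains with a mean below 1 read. Only 10 lay in domains with a mean of at least 3.04 reads per bin, the lowest mean in the WT list. The 160 are therefore windows listed by the authors' domain caller, mostly on thin counts. With the same lowest mean count asked of both genotypes, 0.229% of the doubly marked Uhrf1 windows kept the mark. Bins were 1500 bp long in KO and 1800 bp in WT and the depth is unknown, so counts per bin are not on 1 scale between genotypes.

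Kcnq1, a potassium channel gene in an imprinted region, held the window with the highest KO H3K27me3 among those in coding genes. Its window at chr7:150420001-150430000 lay in a KO domain of 7.11 reads per 1500 bp bin and a WT domain of 14.2 per 1800 bp bin. It also kept H3K9me3. Next came windows in Cyp3a41a, a cytochrome P450 gene, at 4.01 reads, and in Bcl2a1a, an anti-apoptotic Bcl2 family member, at 3.65. Krtap5-2, a keratin-associated protein, followed at 2.61, then 3 touching windows in the predicted gene Gm5622 at 2.52 in 1 domain, Cnpy1 at 1.97, C130026I21Rik at 1.77 and H60b, a ligand of the NKG2D receptor, at 1.67. In all, 37 of the 160 windows overlapped a coding gene. The Cyp3a41a, C130026I21Rik and H60b windows were only partly covered, by 2000, 1500 and 500 bp.

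H3K4me3 appeared in KO mESC at 33 of the windows, 13 of them in coding genes and 2 with a coding gene's start. The highest mean counts in coding genes were 17.9 reads per 1300 bp bin in Slc7a15, an amino acid transporter gene, 14.2 at both windows of Vmn2r117, a pheromone receptor gene, 14.1 in Efemp1, an extracellular matrix gene, and 11.04 in the kinase gene Frk. All 5 of these windows kept H3K9me3 in KO mESC. Of the 33, 9 also had H3K4me3 in a WT EB list.

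The chromosomes differed in how many windows they gave. The doubly marked share of Uhrf1 windows was 72.2% on chromosome 8 and 68.3% on chromosome 11, against 19.4 to 55.2% on the other 17 autosomes. X held 2130 Uhrf1 windows, of which 24 (1.13%) were doubly marked, and Y held none. The KO H3K9me3 share was 100% of 192 windows on chromosome 11, 57.1% of 322 on chromosome 8 and 58.2 to 86.2% on the other 17 autosomes. All windows on chromosome 11 stood at 98.9%, above the 16.1 to 61.0% of the other 17 autosomes. All windows on chromosome 8 stood at 33.8%, within that range.

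**Figure D4:**
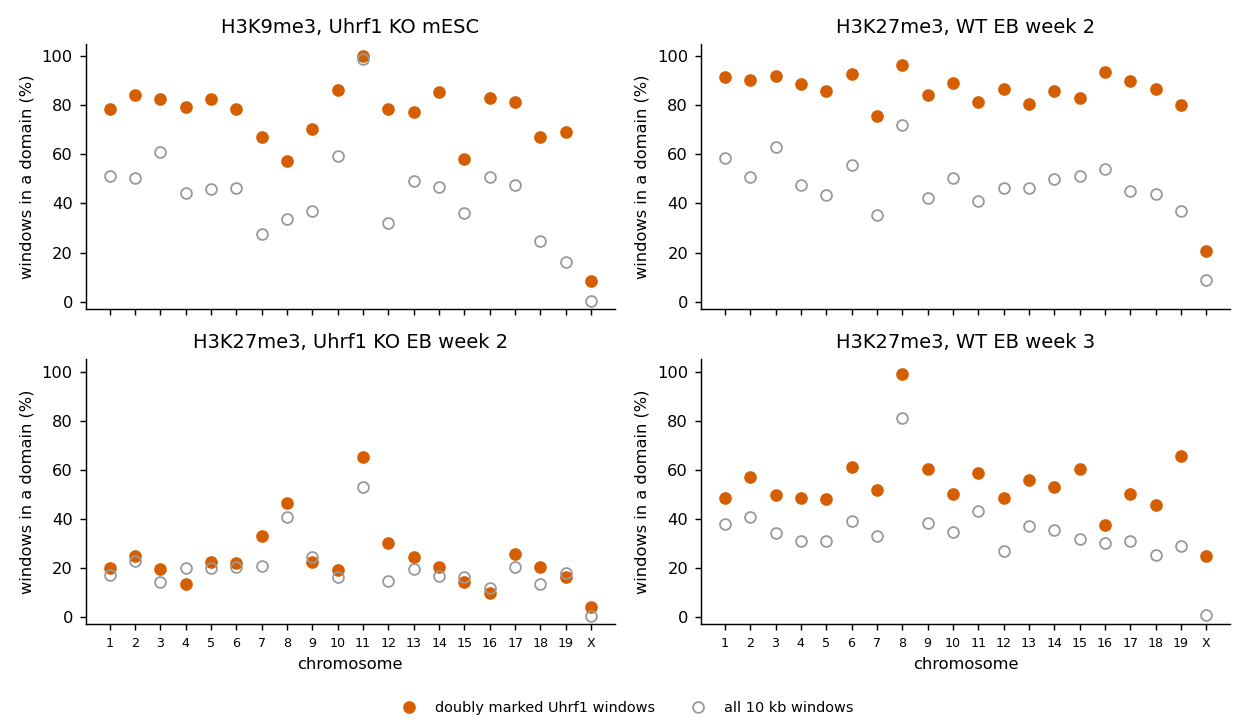
Share of windows in a domain (%, vertical axis) on each chromosome (horizontal axis) for 4 lists. Filled orange points are doubly marked Uhrf1 windows and open grey points all 10 kb windows with at least 50% known bases. Chromosome 11 reaches 100% for KO mESC H3K9me3, and chromosome 8 reaches 99.1% for WT EB week 3 H3K27me3.

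During EB formation, H3K27me3 at the doubly marked Uhrf1 windows was almost unlisted at week 1 in both genotypes, was listed again at most windows in WT by week 2, and at about 1 in 4 in KO. In WT EBs, H3K27me3 domains of week 1 overlapped 168 windows (3.845%), those of week 2 3835 (87.8%) and those of week 3 2428 (55.6%). The backgrounds over all windows were 6.45%, 47.3% and 34.6%. In Uhrf1 KO EBs it overlapped 218 windows (4.99%), 1098 (25.1%) and 1359 (31.1%), against backgrounds of 9.56%, 19.8% and 17.8%. At week 1 both shares were thus below the background, and from week 2 on both were above it.

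KO minus WT over the same windows was 1.14 points at week 1 (0.424 to 1.875, paired Newcombe interval), -62.7 points at week 2 (-64.2 to -61.0) and -24.5 points at week 3 (-26.2 to -22.7). At week 2, 970 windows had the mark in both genotypes, 2865 in WT alone, 128 in KO alone and 406 in neither. By week 3 the windows with the mark in both were 1025, in WT alone 1403, in KO alone 334 and in neither 1607. The week 2 difference was negative on 19 of 19 autosomes, from -84.1 points on chromosome 16 to -16.2 on chromosome 11, and so was that of week 3, from -43.6 points on chromosome 19 to -2.08 on chromosome 11. Without chromosomes 8, 11 and X it was -66.3 points at week 2 and -25.3 at week 3.

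**Figure D5:**
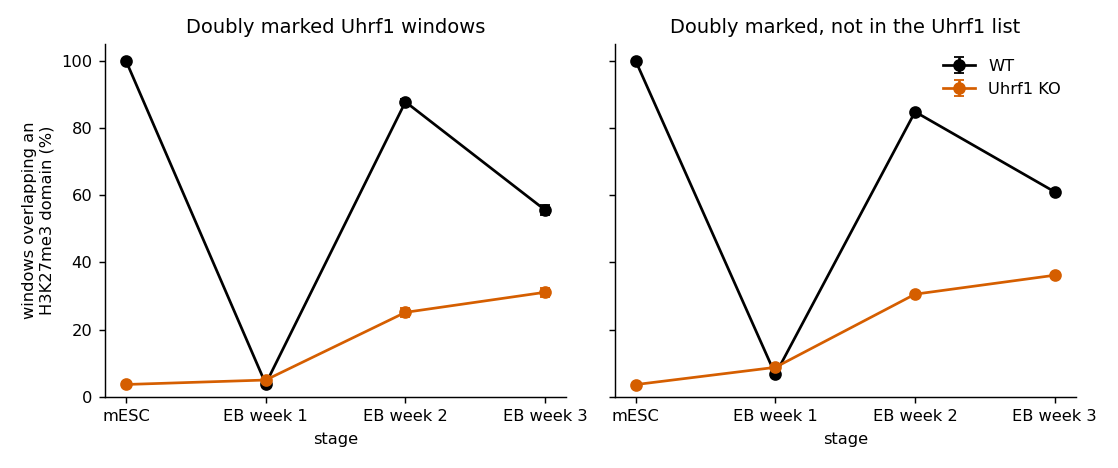
Share of windows overlapping an H3K27me3 domain (%, vertical axis) in mESC and in EBs of week 1, 2 and 3, for WT (black) and Uhrf1 KO (orange), with 95% Wilson intervals, in doubly marked Uhrf1 windows (left) and in doubly marked windows outside the list (right). WT mESC is 100% by the rule. In the left panel WT reaches 87.8% and KO 25.1% at week 2.

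The week 3 value rested on which KO domains were counted. Where only domains at or above the larger of the lowest mean counts of the 2 genotypes' lists entered, the KO share at week 3 was 2.08% and the difference -53.5 points, while at week 2 the KO share was 21.6% and the difference -66.2 points. The direction was the same in both cases. The lists were not scaled to each other in depth, and its part in these values was not tested.

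The course within windows differed between genotypes. In WT, 2054 windows (47.0%) had H3K27me3 at weeks 2 and 3 only and 1626 (37.2%) at week 2 only, while 300 (6.87%) had it at no week. In KO, 2549 windows (58.3%) had it at no week, 678 (15.5%) at week 3 only, 524 (11.99%) at weeks 2 and 3 only and 400 (9.16%) at week 2 only. Of the 4209 windows without H3K27me3 in KO mESC, 1691 (40.2%, 38.7 to 41.7%) were in a KO domain in at least 1 EB week. Of the 160 with it, 129 (80.6%, 73.8 to 86.0%) were.

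The doubly marked Uhrf1 windows differed from the singly marked ones in EBs. Those with H3K9me3 alone, which lacked H3K27me3 in WT mESC, had it in WT EBs at week 2 at 68.1%, which was 19.7 points lower (17.3 to 22.1), and in KO at 6.14%, 19 points lower (17.25 to 20.65). Uhrf1 windows with H3K27me3 alone reached 63.0% in WT (24.7 points lower, 21.3 to 28.3) and 23.7% in KO, where the interval of the difference included 0 (1.46 points, -1.88 to 4.58). Doubly marked windows outside the list had 84.8% in WT at week 2 (2.96 points lower, 1.91 to 3.94), the nearest of the 3 sets in WT, and 30.5% in KO, where the Uhrf1 windows were lower (-5.41 points, -6.73 to -4.05). So the lower KO share at week 2 was not particular to windows in the Uhrf1 list.

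Whether H3K9me3 was kept in KO mESC went with H3K27me3 in WT EBs at week 2 more than in KO EBs. In WT EBs at week 2, 91.1% of the 3381 windows that kept H3K9me3 and 76.3% of the 988 that did not had H3K27me3, a difference of 14.8 points (12.1 to 17.7). For KO EBs at week 2 the shares were 24.7% and 26.6%, and the interval included 0 (-1.92 points, -5.10 to 1.12). At week 3 the differences were -3.65 points in WT (-7.12 to -0.132) and 6.71 points in KO (3.49 to 9.80). No order of the 2 groups held at both weeks in WT.

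H3K4me3 stayed rare at these windows through EB formation. It was listed at 0.778%, 4.10% and 2.01% of them in WT EBs at weeks 1, 2 and 3, against backgrounds of 10.8%, 21.1% and 15.5%. In KO EBs the shares were 1.10%, 2.17% and 2.08%, against 9.62%, 17.2% and 16.2%. KO minus WT was -1.92 points at week 2 (-2.53 to -1.34), and the intervals at weeks 1 and 3 included 0.

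Genes were sparse in the doubly marked Uhrf1 windows. A protein-coding gene body overlapped 856 of them (19.6%, 18.4 to 20.8%), against a background of 44.7% of all windows, and a coding gene's start lay in 127 (2.91%, 2.45 to 3.45%), against 7.83%. Gene bodies were met more often by doubly marked windows outside the list (26.6%, a difference of -7.03 points, -8.24 to -5.78). Uhrf1 windows with H3K27me3 alone also met them more often (33.2%, -13.6 points, -17.1 to -10.2). For H3K9me3 alone the interval for gene bodies included 0 (21.4%, -1.80 points, -4.06 to 0.388). Starts were less frequent with H3K9me3 alone (1.82%, 1.08 points, 0.224 to 1.83) and more frequent outside the list (3.65%, -0.740 points, -1.22 to -0.178). In all, 598 of 22367 coding genes (2.67%) overlapped at least 1 window and 451 of these only 1. The genes touched were long, with a median of 102.5 kb against 15.4 kb over all coding genes, and a longer gene meets more windows.

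Dnahc7b, which encodes an axonemal dynein heavy chain, overlapped the most windows, 11. All 11 kept H3K9me3 and none kept H3K27me3 in KO mESC, and H3K27me3 was listed at 11 in WT and at 0 in KO EBs of week 2. The mean count of the WT domain was the same at all 11, at 17.05 reads for H3K9me3 and 4.314 for H3K27me3. The 11 are therefore not separate observations. Agbl4, a carboxypeptidase gene, and Lipo1, a lipase gene, had 10 windows each, all 10 with KO H3K9me3 and none with KO H3K27me3. Cntnap2, a neurexin-family adhesion gene of neurons, also had 10, of which 4 kept H3K9me3. The windows of these 4 genes all had H3K27me3 in WT EBs at week 2, and at that week in KO EBs 4 of the 10 in Agbl4 had it and none in the other 3 genes.

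Emr1, the gene of the macrophage antigen F4/80, the ephrin receptor gene Epha6, the protocadherin gene Pcdha11 and the zinc finger gene St18 had 6 windows each. The complement factor H-related gene Cfhr2 and Csmd1, a large gene of the nervous system, had 5 each. Csmd1 kept H3K9me3 at none of its windows, and Cfhr2 at all 5. Csmd1 lies on chromosome 8, where H3K9me3 domains touched 87.7% of all windows in WT and 33.8% in KO mESC. Pcdha11 stood apart from the other 9 genes, since all 6 of its windows were in a KO mESC H3K27me3 domain and in H3K27me3 domains of WT and KO EBs at weeks 2 and 3. These 6 lay in 1 KO domain of 0.915 reads per bin, against 13.2 in the WT domain, and 5 of the 6 kept H3K9me3. The annotated span of Pcdha11 covers a cluster of similar genes, and reads could not be assigned to 1 of them.

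The 127 windows with a start held the starts of 135 coding genes with 132 different symbols. Ranked by the WT mean counts of both marks, the first was the predicted gene Gm5591, in domains of 40.4 reads for H3K9me3 and 17.1 for H3K27me3. Others near the top were Bcl2a1a, Naip5, a sensor of bacterial flagellin, the predicted gene Gm3604, Vmn2r117, the carboxylesterase gene Ces2c, the predicted gene Gm7353 and the olfactory receptor genes Olfr380 and Olfr381. At 8 of these 9 starts KO mESC kept H3K9me3, Bcl2a1a being the exception and the only one with KO H3K27me3. Olfr380 and Olfr381 lie on chromosome 11, where KO H3K9me3 domains touched 98.9% of all windows, and Ces2c on chromosome 8, where they touched 33.8%. H3K27me3 was listed in WT EBs of week 2 at 8 of the 9, all but Gm7353, and in KO EBs at 6. Most belong to families of similar genes, where reads can be split between copies.

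Gene families were counted by symbol, and the share of each is read against 2.67% of all coding genes. Receptors of smell were divided: 24 of 1113 olfactory receptor genes (2.16%) and 30 of 328 vomeronasal receptor genes (9.15%), which detect pheromones, overlapped a window, the former with 20 and the latter with 11 starts in a window. Uhrf1 windows of any kind overlapped 43 olfactory, 104 vomeronasal and 2200 of all coding genes. The doubly marked part was 24 of 43, 30 of 104 and 598 of 2200 genes. The higher vomeronasal share was thus not particular to the doubly marked windows. All 40 windows in vomeronasal receptor genes kept H3K9me3 in KO mESC and none kept H3K27me3, while 20 of 24 in olfactory receptor genes kept H3K9me3. H3K27me3 was listed at 38 of the 40 vomeronasal windows in WT EBs at week 2 and at 9 in KO EBs.

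Families with tandem copies elsewhere included cytochrome P450 genes with 10 of 104, serpins with 6 of 60, killer lectin receptors of natural killer cells with 6 of 28 and UDP glucuronosyltransferases with 3 of 21. Genes of adhesion proteins, channels and receptors, many of them active in neurons, were also met: contactins and their relatives with 5 of 13 genes and 18 windows, glutamate receptors with 5 of 30 and 10 windows, potassium channels with 8 of 96, GABA-A receptors with 2 of 19 and protocadherins with 2 of 36. In the contactin group 6 of 18 windows kept H3K9me3 in KO mESC, and 18 of 18 had H3K27me3 in WT EBs at week 2 against 2 in KO. Among developmental regulators, 0 of 40 Hox genes, 0 of 10 Pax genes, 1 of 45 Fox genes (Foxp2, 2.22%) and 1 of 19 Sox genes (Sox30, 5.26%) were met, numbers too small to be told from the share over all coding genes. No cadherin gene of 29 was met, and none of 81 genes with symbols that begin with Mage, Xlr, Rhox, Ssx, Slx or Sycp. For those of them on X a count of 0 says little, since only 24 of 2130 Uhrf1 windows on X were doubly marked. Zinc finger genes named Zfp gave 4 of 374 and keratins and their partners 2 of 100. The families differ widely in gene length, from a median of 0.960 kb for olfactory receptors and 4.16 kb for protocadherins to 232 kb for glutamate receptors and 371 kb for contactins.

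The longest runs of touching windows were short. The longest, chr6:132160001-132210000, held 5 windows over Prb1, a salivary proline-rich protein gene. All 5 kept H3K9me3 and none H3K27me3 in KO mESC, and H3K27me3 was listed at 5 in WT and 0 in KO EBs of week 2. Runs of 4 windows lay in Cfhr2 at chr1:141780001-141820000 and over the vomeronasal receptor gene Vmn1r54 at chr6:90210001-90250000. Both kept H3K9me3 at all 4 windows, but in EBs of week 2 the Cfhr2 run had H3K27me3 at 4 windows in WT and 0 in KO, and the Vmn1r54 run at 3 in WT and 4 in KO.

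Oct4 sites were more frequent in the doubly marked Uhrf1 windows than in doubly marked windows outside the list, and they lay in repeats. A WT Oct4 summit lay in 411 windows (9.41%, 8.58 to 10.3%), against a background of 4.44%. Outside the list it was 2.62%, a difference of 6.78 points (5.94 to 7.69). Uhrf1 windows with H3K9me3 alone had 11.6% (-2.20 points, -3.97 to -0.540) and those with H3K27me3 alone 14.3% (-4.90 points, -7.64 to -2.46). The doubly marked ones had the lowest share of these 3 sets, but Uhrf1 windows with no mark had 7.30%. Over all Uhrf1 windows the share was 9.39%, close to that of the doubly marked ones. In KO mESC 1 window held an Oct4 summit (0.0229%), against a background of 0.129%, and none of the 430 WT sites had a KO Oct4 summit within 100 bp. A count of 0 allows a share of up to 0.698% by the limit of 3 counts and up to 0.886% by the Wilson interval. Of the 1571 WT sites in doubly marked windows outside the list, 29 had one (1.85%, 1.29 to 2.64%). In Uhrf1 windows with a single mark the count was also 0, of 231 sites with H3K9me3 alone and 121 with H3K27me3 alone. Over all Uhrf1 windows, 24 of 1423 sites had one (1.69%). The KO Oct4 list was short throughout, with 485 summits in all windows against 12695 in WT.

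Sox2 and Nanog were scarce. WT Sox2 summits lay in 29 windows (0.664%) and WT Nanog summits in 5 (0.114%), against backgrounds of 1.84% and 0.823%. In KO mESC they lay in 129 (2.95%) and 42 (0.961%), against backgrounds of 7.07% and 3.67%. Both lists were longer in KO over the genome as well. A KO Sox2 or Nanog summit lay within 100 bp of 69 of the 430 WT Oct4 sites (16.0%, 12.9 to 19.8%), against 42.8% (40.4 to 45.3%) of the 1571 in doubly marked windows outside the list and 52.6% of all placed WT Oct4 sites. In Uhrf1 windows with H3K9me3 alone the share was 19.9% of 231 sites (15.3 to 25.5%). With H3K27me3 alone it was 10.7% of 121 (6.39 to 17.5%), and over all Uhrf1 windows 22.8%. The low share was thus not particular to the doubly marked ones.

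To show what such sites look like, 3 of the tallest WT Oct4 sites in the windows are given with 30 bases on each side of the summit on the plus strand of mm9 and with CpG in capitals.
Height 103, chr1:58670773-58670833: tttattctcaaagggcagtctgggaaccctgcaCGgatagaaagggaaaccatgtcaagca
Height 93, chr1:44879282-44879342: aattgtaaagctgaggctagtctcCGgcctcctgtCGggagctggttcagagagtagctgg
Height 91, chr8:92748231-92748291: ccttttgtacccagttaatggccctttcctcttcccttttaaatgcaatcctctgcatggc
None of the 3 holds the octamer ATGCAAAT or its reverse complement ATTTGCAT, the motif bound by Oct4. All 31 stretches of 31 bases in each of the first 2 occur at least 2 times in the genome, with medians of 3 and 46 copies, and those of the third occur once. Their heights compare with a median of 25 over the 430 sites and 33 at the 1571 doubly marked sites outside the list.

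Most Oct4 sites of the windows were in repeated sequence. The 31 bases centred on the summit occurred at least 2 times in the genome at 399 of 430 sites (92.8%, 89.9 to 94.9%), with a median of 1160 copies. At sites outside the Uhrf1 list the share was 29.3% (28.4 to 30.1%) with a median of 1 copy, and at sites in other Uhrf1 windows 91.8% with a median of 213. The 101 bases around the summits held a mean of 5.42 CpG at a GC content of 58.4% in the doubly marked Uhrf1 windows, against 2.39 CpG and 50.8% outside the list. The octamer was found on either strand in these 101 bases at 23 of 430 sites (5.35%, 3.59 to 7.90%), at 9.28% of sites outside the list and in 0.851% of all stretches of that length in the genome. A match to these letters is a description of the sequence and no evidence of binding.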

How the data were processed

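ChIP-seq was deposited for 25 of 33 samples as lists, and the 8 inputs were not analysed here. The authors mapped reads to mm9 with Bowtie2 (2.1.0, per the labels), reporting a single alignment per read. The authors called histone domains with RSEG, Oct4, Sox2 and Nanog summits with MACS, and Uhrf1 windows of 10000 bp as enriched over input. The deposited histone lists hold a signal (for each domain, the mean count of reads in its bins) and a domain score, the deposited summit lists a signal (the summit height), and the deposited Uhrf1 list an index with no measurement. Read totals are not in these lists, so the depth is unknown.

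Windows were assigned with an overlap of at least 1 bp in Python 3.11 with numpy 2.4.6 and pandas 2.3.3, and figures drawn with matplotlib 3.10.9. The background was 255875 of 265500 windows with at least 50% known bases. Genes were those of GENCODE on NCBIM37, the build of mm9. Shares have Wilson and differences Newcombe 95% intervals, and no test was run, since each group had 1 library. The interval code was tested on simulated data. Genes were named by fixed ranks: the 10 with most windows, up to 10 starts by WT counts, up to 10 windows by KO H3K27me3 and up to 5 by KO H3K4me3, and the 3 longest runs. Members, lists and comparisons were chosen with earlier results of these data known. Alternatives were a cover of 50%, domains at or above the median score and equal weight for runs and, added after the data were seen, groups of domain length and of repeat content, leaving out chromosomes 8, 11 and X, and 1 minimum mean count for both genotypes. Repeats were counted as exact matches of 31 bases on both strands. Some items that these rules would name are not reported here.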

Additional observations from a re-analysis of the deposited data

Results flagged for a closer look

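The difference in H3K27me3 between Uhrf1 KO and WT EBs over the doubly marked Uhrf1 windows had opposite signs at different weeks. It was 1.14 percentage points at week 1, where the KO share was the higher, -62.7 points at week 2 and -24.5 points at week 3. With 1 library per genotype and week, the change of sign was not tested. Over all 10 kb windows the values were 3.11, -27.5 and -16.7 points, so that the sign turned there too.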

How the results depend on the processing

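Of 59 alternative values for 10 main results, 39 lay within the interval of the reported value, 18 moved outside it and 2 reversed a difference whose interval excluded 0. The H3K27me3 difference from doubly marked windows outside the list, whose interval includes 0, had either sign among its alternatives. Requiring 50% cover gave a doubly marked share of 30.4% and KO H3K9me3 at 75.5%. With domains at or above the median score these were 25.1% and 68.0%, KO H3K27me3 was 2.75%, members minus doubly marked windows outside the list were 2.98 points for H3K9me3 and -0.691 for H3K27me3, and KO minus WT was -64.6 points at week 2 and -21.3 at week 3. With each run of touching windows weighing the same, the differences from windows outside the list were 10.8 points for H3K9me3 and -1.65 for H3K27me3. The alternatives that follow were chosen after seeing the data. Within groups of domain length, the H3K9me3 difference from windows with H3K9me3 alone was -0.533 points and that from windows outside the list 5.81. Within groups of repeat content the latter was -2.66 points. Without chromosomes 8, 11 and X the doubly marked share was 35.5%, the H3K27me3 difference from windows outside the list 0.744 points and the week 2 difference -66.3. With 1 minimum mean count for both genotypes, KO H3K27me3 in mESC was 0.229%, and KO minus WT was -66.2 points at week 2 and -53.5 at week 3. For the shares in single EB lists, 17 of 36 alternatives lay within the interval and 19 moved. The cause was not tested in any of these. The genotypes were paired by window only. No pairing of replicate samples was possible because each genotype, stage and target has 1 library and no replicate.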
